A study of Mus musculus with 12 samples.

Results

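The 7 genes of the mouse mitochondrial genome that encode subunits of respiratory complex I (mt-Nd1, mt-Nd2, mt-Nd3, mt-Nd4l, mt-Nd4, mt-Nd5 and mt-Nd6) were followed across the translating mRNA of unwounded and wounded keratinocytes, the cells that build the epidermis. They were chosen by gene name, as protein-coding genes of chromosome MT, and are 7 of the 54532 genes in the deposited count table. The 12 libraries were of cultured mouse keratinocytes labelled with the genotype WT DP-BirA(1-584), an amino-terminal piece of the desmosome protein desmoplakin fused to the biotin ligase BirA. In all 4 groups, confluent cells received calcium to induce differentiation and doxycycline at 2 µg/mL to switch on the fusion protein, and a 16 h pulse of biotin then labelled material near it. Cells were scratch wounded or left unwounded before the pulse. A sucrose gradient gave the translating fraction, from which neutravidin pulled out the biotin-labelled material. The RNA captured this way is the cortical RNA, and what was left after that depletion is the total RNA. There were 3 libraries, titled as biological replicates, of each kind of RNA from unwounded and from wounded cells, thus 4 groups. All groups carried the fusion protein and received the same agents, so that no library came from cells without the ligase.

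Complex I (NADH:ubiquinone oxidoreductase) passes electrons from NADH to ubiquinone and pumps protons across the inner mitochondrial membrane. Its membrane arm is built around the mitochondrially encoded subunits, while the peripheral arm and the accessory (supernumerary) subunits come from nuclear genes and are translated on cytosolic ribosomes. The mitochondrial mRNAs are cut out of long transcripts of the circular genome and are translated by mitochondrial ribosomes inside the organelle. Nuclear chromosomes also hold inserted copies of mitochondrial DNA, whose sequence can be close to that of the mitochondrial genes.

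Sequence features set how far each gene can be counted on its own, and the sequences below show those places. Positions are as the deposited table gives them, and those of all 7 genes were the same in the GENCODE M21 annotation of the mouse GRCm38 genome, the release from which the sequences were read. From 5′ to 3′ on the plus strand, mt-Nd1 runs over MT:2751-3707, mt-Nd2 over MT:3914-4951, mt-Nd3 over MT:9459-9806, mt-Nd4l over MT:9877-10173, mt-Nd4 over MT:10167-11544 and mt-Nd5 over MT:11742-13565. The gene mt-Nd6 lies on the minus strand at MT:13552-14070. None of these genes has an intron, and each gene is a coding sequence with its own start: GTG in mt-Nd1, ATA in mt-Nd2, ATT in mt-Nd3, ATC in mt-Nd5, and ATG in mt-Nd4l, mt-Nd4 and mt-Nd6. The coding sequence of mt-Nd4 ends with a lone T after its last whole codon, a stop codon that the poly(A) tail completes. The mt-Nd6 mRNA sequence is 28.1% G and 6% C, whereas the other 6 are 8% to 11.6% G and 22.1% to 30% C.

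The neighbours mt-Nd4l and mt-Nd4 overlap by 7 bases on the same strand (MT:10167-10173). The last 40 bases of mt-Nd4l and the first 40 bases of mt-Nd4 are shown to place that overlap, which is in capitals.
mt-Nd4l, last bases: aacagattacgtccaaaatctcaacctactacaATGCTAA
mt-Nd4, first bases: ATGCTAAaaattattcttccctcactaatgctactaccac

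The 3′ ends of mt-Nd5 and mt-Nd6 meet head on and overlap by 14 bases (MT:13552-13565) on opposite strands. The last 40 bases of each gene, read on its own strand, are shown with the shared bases in capitals, which are reverse complements of each other.
mt-Nd5, last bases: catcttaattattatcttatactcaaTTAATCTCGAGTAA
mt-Nd6, last bases: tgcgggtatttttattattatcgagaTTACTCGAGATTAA
Because the libraries were non-directional, fragments of the mt-Nd6 mRNA and fragments of plus-strand RNA that runs across the same positions cannot be told apart.

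Nuclear copies lie next to each other on the minus strand of chromosome 1 for 3 of the 7 genes, as the unprocessed pseudogenes Gm28438 (chr1:24612775-24613119, a copy of mt-Nd3), Gm10222 (chr1:24612407-24612700, of mt-Nd4l) and Gm28439 (chr1:24611535-24612410, of the 5′ part of mt-Nd4). Gm28438 matched mt-Nd3 at 344 of 345 bases, and the single difference was T3C, counted from 1 at the first base of mt-Nd3. The first 40 bases of both are shown with that base in capitals.
mt-Nd3, first bases: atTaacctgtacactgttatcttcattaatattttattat
Gm28438, first bases: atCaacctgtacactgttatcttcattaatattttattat
Gm10222 matched mt-Nd4l at 294 of 294 bases, and Gm28439 matched mt-Nd4 at 876 of 876 bases. The whole of mt-Nd4l is shown because all but its stop codon, in capitals, is present in the nuclear copy.
mt-Nd4l, whole: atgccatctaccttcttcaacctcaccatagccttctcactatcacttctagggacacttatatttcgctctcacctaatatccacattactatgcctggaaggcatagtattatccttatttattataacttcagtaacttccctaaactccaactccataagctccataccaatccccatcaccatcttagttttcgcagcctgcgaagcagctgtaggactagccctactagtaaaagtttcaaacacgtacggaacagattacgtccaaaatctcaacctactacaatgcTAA
Of all windows of 100 bases along each gene, 97.6% in mt-Nd3, 98.5% in mt-Nd4l, 60.8% in mt-Nd4 and 3.19% in mt-Nd2 also occurred in an annotated nuclear transcript. The share was 0% in mt-Nd1, mt-Nd5 and mt-Nd6. With windows of 50 bases it was 7.61% in mt-Nd5 and 8.19% in mt-Nd2. Only annotated transcripts were searched and not the whole nuclear genome, so that copies outside them would not be seen. How the counting treated fragments with more than 1 matching place is not given in the sources used here.

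The libraries held 8980013 to 23457548 counts, and 13571 genes had enough counts to be tested, all 7 complex I genes among them. Wounded total replicate 1 stood apart: 13117 genes were detected in it and 14393 to 16867 in each of the rest, and 39.3% of the genes expected at 10 to 20 counts in it had 0, against 0.912% to 13.7% elsewhere. Results that rest on this library are therefore also given without it. The keratinocyte markers (Krt5, Krt14, Krt1, Krt10, Trp63, Sfn, Perp and Dsp) were given as CPM, the usual depth-scaled count, here with TMM library sizes. Among them Krt5 was at 3707 to 7637 and Krt14 at 4229 to 10890 CPM over the libraries. Krt10 was at 16.0 to 32.7 and Krt1 at only 0 to 1.84 CPM. The keratinocyte markers summed to 10850 to 11940 CPM in unwounded total, 15220 to 15360 in unwounded cortical, 17420 to 20070 in wounded total and 20700 to 21040 in wounded cortical libraries, and the part of this difference in the results was not tested. In contrast, the fibroblast, melanocyte, immune and endothelial lists each summed to at most 6.47 CPM in a library, with Dcn, Tyr, Cd207, Tyrobp and Cdh5 at 0 in all libraries. With scaling by library size alone the median log2 change of all genes moved by 0.19 and 0.21 in the comparisons of cortical with total RNA of unwounded and wounded cells, and the share of calls that were higher moved from 46.6% to 77.1% and from 48.7% to 80.9%. That share moved from 53.8% to 39.1% for wounding in total RNA and from 64.4% to 54.3% for wounding in cortical RNA. In such bulk RNA, fewer cells of a type and less RNA per cell cannot be told apart. The comparisons below share groups: the unwounded total libraries, for example, enter both that of fractions in unwounded cells and that of wounding in total RNA.

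The 7 mRNAs differed widely in level among themselves, from mt-Nd2 to mt-Nd4l. Levels are compared between genes as CPM per kilobase of gene. In unwounded total RNA, mt-Nd2 stood first with 21790 ± 4346 CPM per kilobase (SD, n = 3), followed by mt-Nd6 with 10100 ± 1412, mt-Nd1 with 9455 ± 2429 and mt-Nd4 with 8743 ± 1754, and the libraries of these last 3 genes overlapped. The counts of mt-Nd6 can include plus-strand RNA across the same positions, which these non-directional libraries cannot separate, so its place in the order may not be that of its mRNA. The level of mt-Nd5 was 2609 ± 336, that of mt-Nd3 189 ± 60.1 and that of mt-Nd4l 21.9 ± 3.68 CPM per kilobase, and none of these overlapped with its neighbour in the order. In unwounded cortical RNA, mt-Nd6 took the place after mt-Nd4, with 3278 ± 65.7 against 4252 ± 78.6 CPM per kilobase, and no neighbours overlapped. The order was the same in wounded cortical RNA, where mt-Nd4 (2731 ± 154) and mt-Nd6 (2615 ± 26.2) overlapped. In wounded total RNA the 4 highest genes overlapped in a chain from mt-Nd2 (10200 ± 3313) through mt-Nd1 and mt-Nd6 to mt-Nd4 (4088 ± 1016). In all 4 groups, mt-Nd5, mt-Nd3 and mt-Nd4l came last, in that order.

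**Figure D1:**
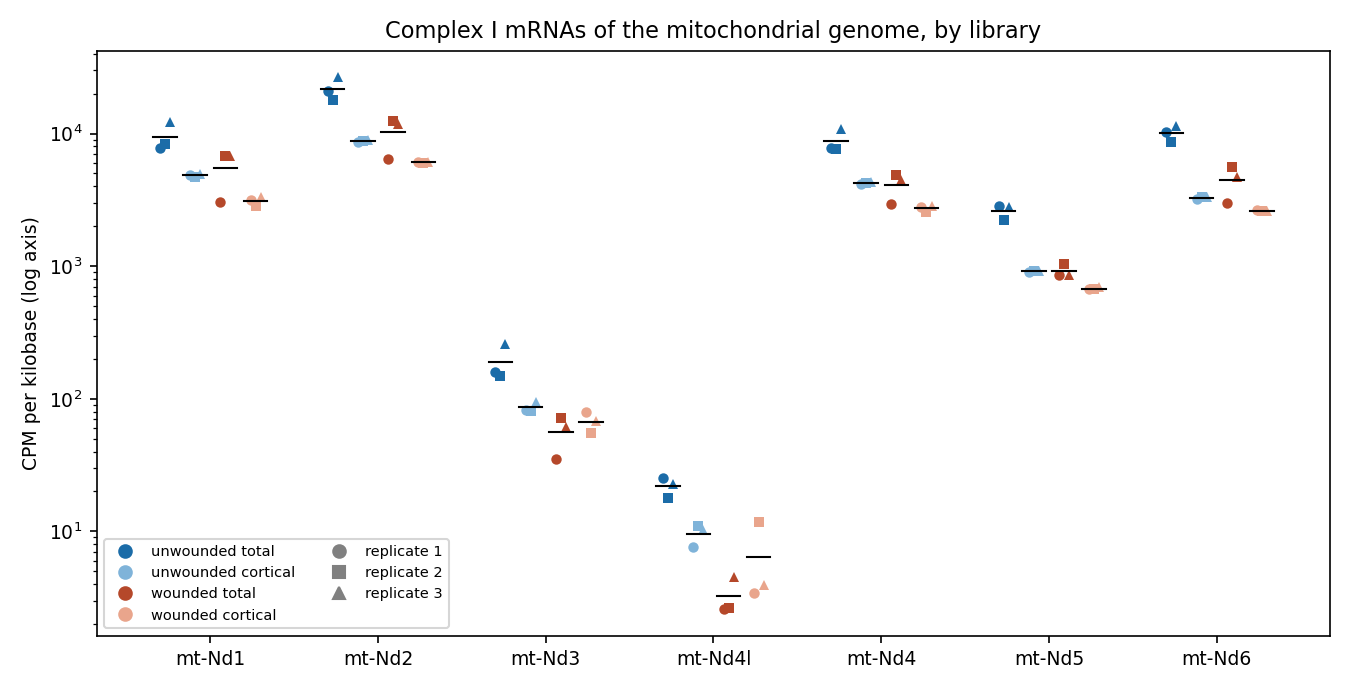
CPM per kilobase on a log axis for the 7 complex I mRNAs of the mitochondrial genome, with a point for each of the 12 libraries (shape gives the replicate, colour the group) and a bar at each group mean. Unwounded total libraries are the highest group for every gene, and mt-Nd3 and mt-Nd4l lie well below the other 5 genes.

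The subunit ND1 sits where the membrane arm meets the peripheral arm and forms part of the ubiquinone channel. Its mRNA, mt-Nd1, was at 7499, 7925 and 11720 CPM in unwounded total replicates 1 to 3 and at 4650, 4525 and 4734 CPM in the unwounded cortical libraries. In wounded cells it was at 2937, 6504 and 6454 CPM in total RNA and at 3044, 2732 and 3161 CPM in cortical RNA. Unwounded total replicate 3 was the highest library, and wounded total replicate 1 lay among the wounded cortical libraries, below replicates 2 and 3 of its group.

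The subunits ND2, ND4 and ND5 resemble bacterial sodium/proton antiporters and line up along the membrane arm, with ND5 at its far end. The most abundant member, mt-Nd2, was at 21640, 18670 and 27530 CPM in unwounded total RNA and at 8986, 9154 and 9306 CPM in unwounded cortical RNA. It was at 6634, 12880 and 12260 CPM in wounded total RNA and at 6382, 6188 and 6377 CPM in wounded cortical RNA. The groups did not overlap within either treatment, although wounded total replicate 1 lay close to the cortical libraries. For mt-Nd4 the values were 10700, 10610 and 14840 CPM in unwounded total RNA, 5743, 5877 and 5957 in unwounded cortical RNA, 4056, 6730 and 6114 in wounded total RNA and 3861, 3521 and 3910 in wounded cortical RNA. Again wounded total replicate 1 was the lowest of its group, without overlap with the wounded cortical libraries. For mt-Nd5 the values were 5164, 4054 and 5058 CPM in unwounded total RNA, 1641, 1684 and 1689 in unwounded cortical RNA, 1552, 1907 and 1556 in wounded total RNA and 1228, 1221 and 1261 in wounded cortical RNA. Here wounded total replicate 1 was not set apart from replicate 3 of its group.

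The small subunits ND3, ND4L and ND6 lie between the ubiquinone channel and the pumping subunits, and a loop of ND3 and a helix of ND6 move between the active and the resting (deactive) form of the enzyme. The mRNA mt-Nd6 was at 5305, 4482 and 5943 CPM in unwounded total RNA, 1662, 1714 and 1727 in unwounded cortical RNA, 1544, 2900 and 2462 in wounded total RNA and 1372, 1352 and 1346 in wounded cortical RNA. The wounded total libraries lay above the wounded cortical ones, replicate 1 by the least. The mRNA mt-Nd3 was at 55.6, 51.9 and 89.8 CPM in unwounded total RNA, 28.9, 28.2 and 33.2 in unwounded cortical RNA, 12.3, 25.0 and 21.3 in wounded total RNA and 27.7, 19.1 and 23.7 in wounded cortical RNA, so that the wounded groups overlapped. The scarcest member, mt-Nd4l, had 170, 94 and 114 counts in the unwounded total libraries, 58, 39 and 30 in the unwounded cortical, 13, 14 and 22 in the wounded total and 25, 56 and 24 in the wounded cortical libraries. Only its wounded total libraries had fewer than 24 counts, and wounded cortical replicate 2 stood above the other libraries of its group.

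In unwounded cells, complex I mRNAs of the mitochondria were less abundant in cortical than in total RNA. With edgeR's quasi-likelihood test, adjusted with the Benjamini-Hochberg method over all 13571 genes, 6 of the 7 passed the threshold of 0.05, all lower. Of all genes tested, 14.2% were called in this comparison, 7.59% lower and 6.62% higher. The largest decreases were in mt-Nd6 (log2 fold change -1.62, SE 0.17, adjusted p = 2.04e-05), whose counts can come from either strand, and mt-Nd5 (-1.51, SE 0.12, adjusted p = 4.61e-07). The decreases of mt-Nd2 (-1.31, SE 0.19), mt-Nd3 (-1.13, SE 0.24), mt-Nd4 (-1.04, SE 0.16) and mt-Nd1 (-0.96, SE 0.23) had adjusted p-values of 0.000349 to 0.00865. The scarce mt-Nd4l had a log2 fold change of -1.19 with a wider SE of 0.48 and was not called (adjusted p = 0.113). The cortical libraries lay below the total libraries without overlap for all 7 genes, an arrangement found for 19.1% of all genes tested.

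The median log2 fold change of the 7 was -1.19, against 0.00 for all genes tested. Without wounded total replicate 1, which is in neither of the groups compared, 14073 genes were tested and all 7 members were called (mt-Nd4l at adjusted p = 0.0481), and mt-Nd4l also passed when the counts of its nuclear copy were added (adjusted p = 0.0256) or when only the 6 unwounded libraries entered the fit (adjusted p = 0.00949). Calls over all genes were 1928 with edgeR on all 12 libraries, 3151 without that replicate and 3014 with only the unwounded libraries. In limma fits of the deposited FPKM values, mt-Nd1 was not called (adjusted p = 0.0759 and 0.0816).

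In wounded cells the 5 abundant mRNAs were again lower in cortical RNA, with estimates closer to 0 than in unwounded cells, and the 2 scarce ones were not. Of the 7 genes, 5 were called, all lower, where 15.7% of all genes were called, 8.03% lower and 7.62% higher. The test of the change between treatments is given as the interaction. The log2 fold changes were -0.83 for mt-Nd1 (SE 0.23, adjusted p = 0.0202), -0.76 for mt-Nd6 (SE 0.17, adjusted p = 0.00645), -0.75 for mt-Nd2 (SE 0.19, adjusted p = 0.0137), -0.58 for mt-Nd4 (SE 0.16, adjusted p = 0.0221) and -0.43 for mt-Nd5 (SE 0.12, adjusted p = 0.0178) in edgeR. For mt-Nd3 and mt-Nd4l the estimates were positive, 0.27 (SE 0.24, adjusted p = 0.51) and 0.95 (SE 0.51, adjusted p = 0.231), and neither was called. The libraries of mt-Nd2, mt-Nd4, mt-Nd5 and mt-Nd6 were lower in cortical RNA without overlap, as were those of 12.9% of all genes, while those of mt-Nd1, mt-Nd3 and mt-Nd4l overlapped.

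The number of these calls moved with the libraries in the fit, as did calls over all genes. The number of called members fell to 1 without wounded total replicate 2 or wounded cortical replicate 2, to 2 without wounded cortical replicate 1 or 3, and to 3 without wounded total replicate 3. Over all genes, calls fell in these fits from 2124 to between 1084 and 1426, and the estimates of the 5 genes stayed negative. The number of called members stayed at 5 when wounded total replicate 1 was left out, with larger decreases (median of the 7 genes -0.77 against -0.58) and 3475 of all genes called. It was 1 when only the 6 wounded libraries entered the fit (970 of all genes called) or when FPKM values were tested (1647 and 1612), and 3 with scaling by library size alone (2723). With a trend on gene length removed, mt-Nd3 passed as higher (log2 fold change 0.68, adjusted p = 0.0347) and mt-Nd5 was not called (-0.32, adjusted p = 0.0631), which left 4 members lower and 1 higher. With the counts of its nuclear copy added the estimate of mt-Nd3 was -0.033.

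All 7 complex I mRNAs were lower after wounding in total RNA. In edgeR 7 of 7 were called, all lower, against 15.6% of all genes called, 7.2% lower and 8.39% higher, and the median log2 fold change of the 7 was -1.19, against -0.03 for all genes. The decrease was largest for mt-Nd4l (-2.74, SE 0.51, adjusted p = 0.00173), followed by mt-Nd3 (-1.75, SE 0.24, adjusted p = 0.000191) and mt-Nd5 (-1.51, SE 0.12, adjusted p = 6.66e-07). It was -1.19 for mt-Nd6 (SE 0.17), -1.10 for mt-Nd4 (SE 0.16), -1.10 for mt-Nd2 (SE 0.19) and -0.77 for mt-Nd1 (SE 0.23), with adjusted p-values of 0.000252 to 0.0277. On the linear scale these changes left mt-Nd5 at 0.351 times and mt-Nd1 at 0.586 times the unwounded level. Wounded and unwounded libraries did not overlap for any of the 7 genes, and 17.6% of all genes were lower without overlap.

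With wounded total replicate 1 left out all 7 were still called, with a median of -0.97 and a range from -2.60 (mt-Nd4l) to -0.48 (mt-Nd1). Calls over all genes rose there from 2116 to 3502. The call of mt-Nd1 was lost without unwounded total replicate 3 (-0.54, adjusted p = 0.153), with the 6 total libraries alone in the fit (adjusted p = 0.154) and on FPKM values (adjusted p = 0.105 and 0.11).

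In cortical RNA the estimates for wounding were also negative, and most were closer to 0 than in total RNA. Of the 7 genes, mt-Nd4 alone was called (log2 fold change -0.64, SE 0.16, edgeR adjusted p = 0.0452), where 2.48% of all genes were called, 0.884% lower and 1.6% higher. The estimates of the other 6 were -0.64 for mt-Nd1 (adjusted p = 0.143), -0.60 for mt-Nd4l (0.592), -0.53 for mt-Nd2 (0.14), -0.43 for mt-Nd5 (0.0566), -0.35 for mt-Nd3 (0.488) and -0.33 for mt-Nd6 (0.335). The libraries of all but mt-Nd4l were lower in wounded cells without overlap, as were those of 11.5% of all genes.

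The calls moved with libraries that are in neither of the groups compared, which share the filter, the scaling and the estimate of the spread. Leaving out wounded total replicate 1 gave 5 called members, mt-Nd1, mt-Nd2, mt-Nd4, mt-Nd5 and mt-Nd6. Calls over all genes rose there from 337 to 1276, and the median of the 7 stayed at -0.53. With only the 6 cortical libraries in the fit, 5 members and 1423 of all genes were called. The number of called members was 2 without wounded total replicate 2 or 3 or unwounded total replicate 2 (mt-Nd5 joined). It was 0 without any 1 of the 6 cortical libraries, where 108 to 136 of all genes were called, and 0 on FPKM values.

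**Figure D2:**
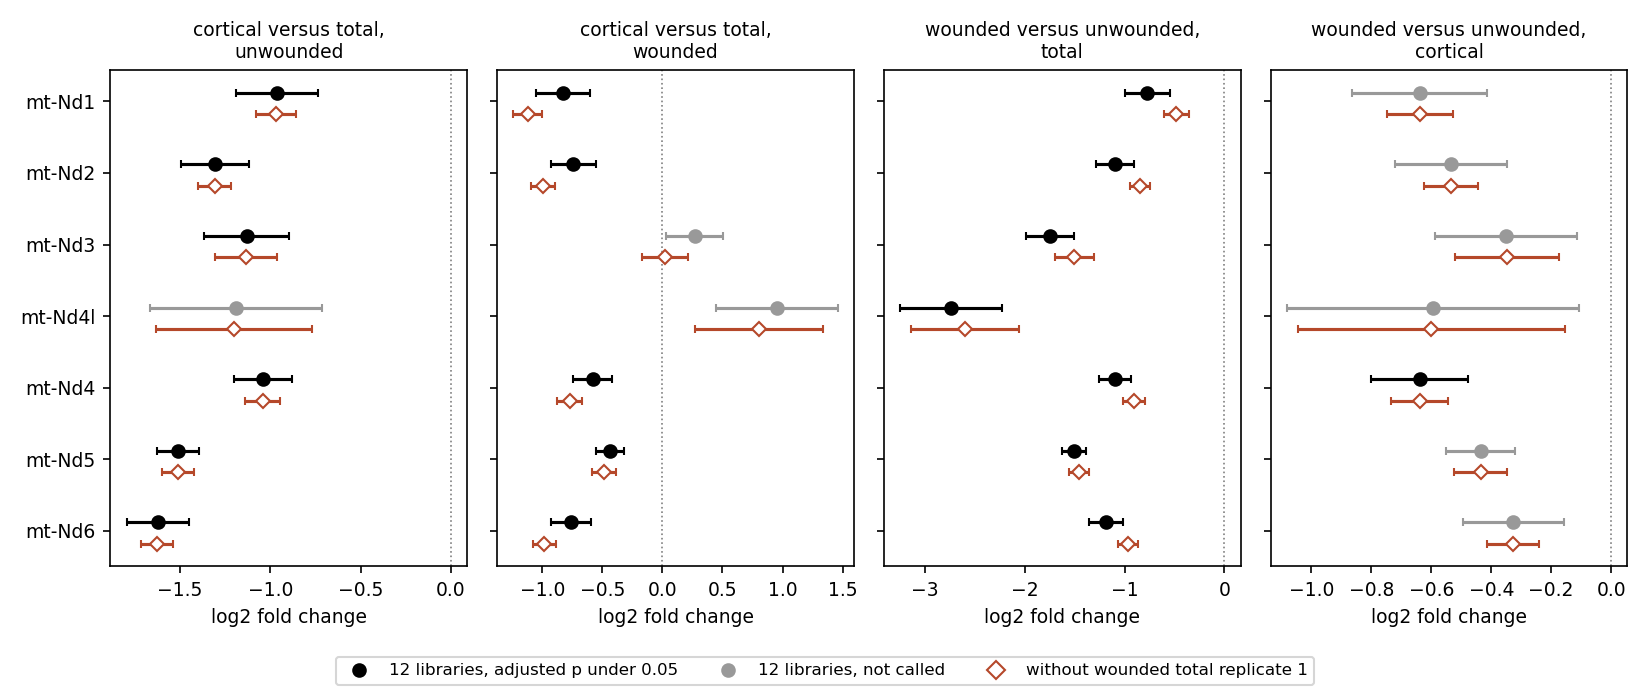
Log2 fold changes with SE (bars) of the 7 complex I mRNAs in the 4 comparisons between groups, from edgeR on all 12 libraries (circles, black where the adjusted p is under 0.05 and grey where not) and without wounded total replicate 1 (open diamonds); the horizontal scales differ between panels. The circles lie left of 0 in every panel except those of mt-Nd3 and mt-Nd4l for cortical against total RNA of wounded cells.

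Whether the difference between cortical and total RNA itself changed with wounding was tested as an interaction, the cortical-to-total log2 ratio of wounded minus that of unwounded cells. In edgeR 1 of the 7 was called, mt-Nd5, with 1.07 (SE 0.16, adjusted p = 0.0117), where 0.125% of all genes were called, 0.0221% higher and 0.103% lower. Its mean level was 4759 ± 613 CPM (SD, n = 3) in total and 1671 ± 26.7 in cortical RNA of unwounded cells, and 1672 ± 204 and 1237 ± 21.7 CPM in wounded cells. The estimates of the other members were also positive, namely 2.15 for mt-Nd4l (adjusted p = 0.357), 1.40 for mt-Nd3 (0.215), 0.86 for mt-Nd6 (0.285), 0.56 for mt-Nd2 (0.549), 0.46 for mt-Nd4 (0.582) and 0.13 for mt-Nd1 (0.937). The call of mt-Nd5 was lost without any 1 of the unwounded cortical libraries or without wounded cortical replicate 2 or 3 (adjusted p = 0.0571 to 0.0853). On FPKM values it was not called either (adjusted p = 0.0959 and 0.0955). With wounded total replicate 1 left out, mt-Nd5, mt-Nd3 (1.16, adjusted p = 0.0161) and mt-Nd6 (0.64, adjusted p = 0.00909) were called, and mt-Nd1 had the opposite sign (-0.16, adjusted p = 0.712). That fit called 413 of all genes, against 17 with edgeR on all 12 libraries.

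The complex I mRNAs made up most of the counts of the 13 mitochondrial mRNAs, and their share was lower in cortical than in total RNA in both treatments. They took 5.18% ± 1.11 (SD, n = 3) of all counts in unwounded total, 2.52% ± 0.0457 in unwounded cortical, 2.26% ± 0.44 in wounded total and 1.65% ± 0.0426 in wounded cortical RNA. As a share of the 13 mitochondrial mRNAs, which does not depend on scaling between libraries, they took 67.7%, 69.3% and 70.1% in the unwounded total libraries and 65.3%, 65.1% and 65.3% in the unwounded cortical libraries. In wounded cells the share was 68.8%, 74.3% and 76.0% in total and 67.9%, 66.8% and 68.2% in cortical libraries. The cortical libraries lay below the total libraries without overlap in both treatments, by a small margin at wounded total replicate 1, and group means without mt-Nd6 kept that order (66.8% against 63.5% unwounded, and 71.1% against 65.6% wounded). The share of mt-Co1, in turn, was higher in cortical than in total libraries without overlap in both treatments. It was 9.89% ± 0.218 against 5.56% ± 1.11 in unwounded and 8.62% ± 0.588 against 4.71% ± 2.87 in wounded cells. Shares of the same sum are not independent, and the complex I share without mt-Co1 was not tested.

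Within the mitochondrial mRNAs the complex I members did not hold constant shares. From total to cortical RNA of unwounded cells, the share of mt-Nd2 went from 29.0% ± 0.697 to 25.9% ± 0.0528, that of mt-Nd6 from 6.77% ± 0.37 to 4.81% ± 0.0399 and that of mt-Nd5 from 6.17% ± 0.752 to 4.73% ± 0.0362, each without overlap. The shares of mt-Nd1 (11.6% ± 1.32 to 13.1% ± 0.278) and mt-Nd4 (15.5% ± 0.939 to 16.6% ± 0.0712) were higher in the cortical libraries, also without overlap. In wounded cells the share of mt-Nd6 was again lower in cortical libraries without overlap (5.86% ± 0.149 against 6.60% ± 0.32). The shares of the scarce mt-Nd3 (0.0505% to 0.06% in total, 0.0846% to 0.118% in cortical libraries) and mt-Nd4l (0.00189% to 0.00355% and 0.00435% to 0.0156%) were higher in cortical libraries without overlap. Those of mt-Nd1, mt-Nd2, mt-Nd4 and mt-Nd5 overlapped between the wounded groups, and in unwounded cells those of mt-Nd3 and mt-Nd4l did.

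The overlapping pair mt-Nd5 and mt-Nd6 had nearly equal counts in most libraries. The number of mt-Nd5 counts per mt-Nd6 count was 0.974, 0.905 and 0.851 in unwounded total, 0.987, 0.982 and 0.979 in unwounded cortical and 0.895, 0.903 and 0.937 in wounded cortical replicates 1 to 3. In wounded total RNA it was 1.01, 0.658 and 0.632, so that replicates 2 and 3 were lower than every other library and replicate 1 higher. Since mt-Nd5 has 1824 bases and mt-Nd6 519, near-equal counts mean a lower level of mt-Nd5 per kilobase. The part that plus-strand RNA across mt-Nd6 has in its counts was not tested.

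**Figure D3:**
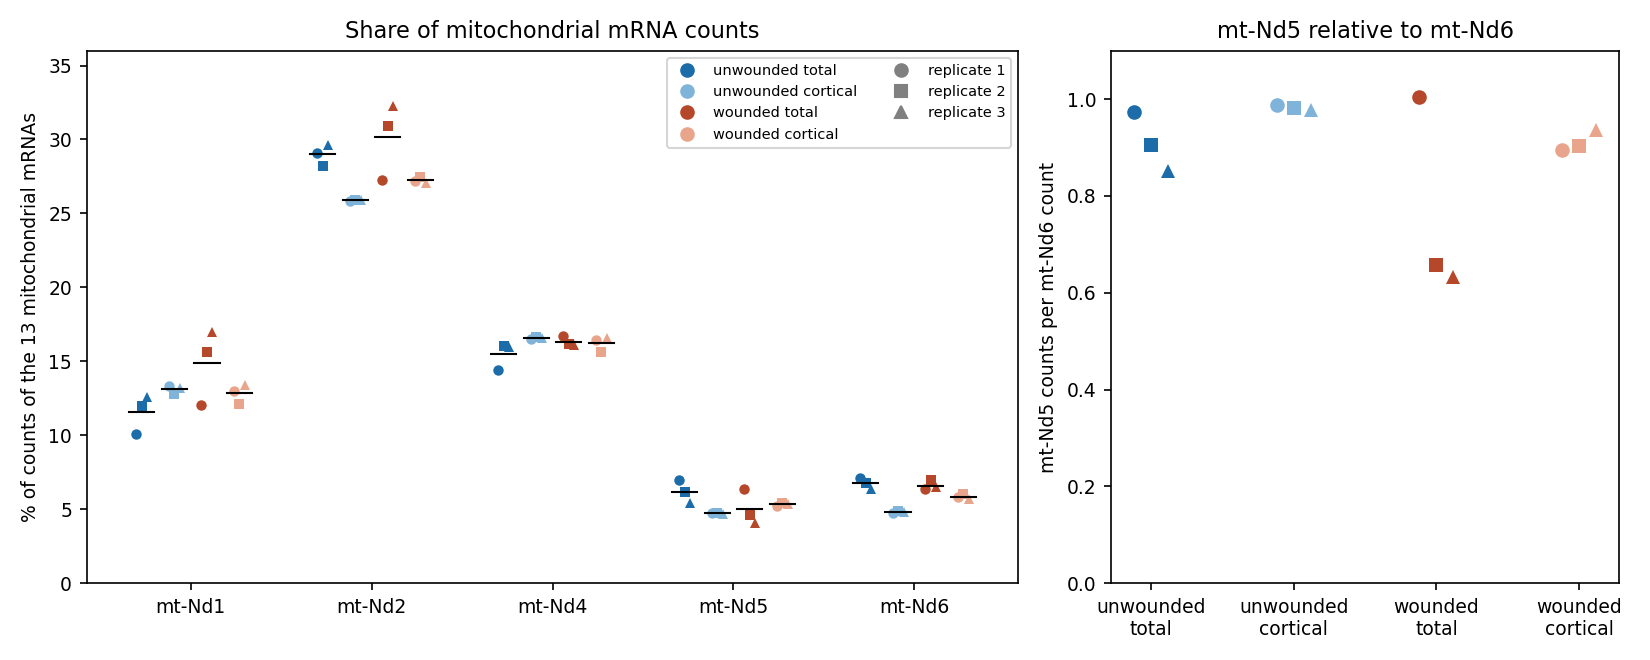
Left, share (%) of the counts of the 13 mitochondrial mRNAs taken by the 5 abundant complex I mRNAs in each of the 12 libraries, with a bar at each group mean; right, mt-Nd5 counts per mt-Nd6 count in each library, with replicates as points. The share of mt-Nd6 is lower in cortical than in total libraries in both treatments, and wounded total replicates 2 and 3 have the lowest mt-Nd5 to mt-Nd6 ratios, 0.658 and 0.632.

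The genes with nearly all windows shared lay below most of the others in level. In unwounded total RNA the 5 mitochondrial mRNAs with over 97% of windows shared were at 2399 ± 1306 (mt-Co2), 2242 ± 851 (mt-Atp6), 282 ± 56.6 (mt-Co3), 189 ± 60.1 (mt-Nd3) and 21.9 ± 3.68 (mt-Nd4l) CPM per kilobase (SD, n = 3). Of the 5 with 0% shared with annotated nuclear transcripts, mt-Cytb was at 14320 ± 2162 and mt-Nd6 at 10100 ± 1412 CPM per kilobase. The level of mt-Nd1 was 9455 ± 2429 and that of mt-Nd5 2609 ± 336. These were above the genes with over 97% shared in mean, and mt-Atp8 was at 3.64 ± 1.91, below them. The part of shared sequence in these levels was not tested. The nuclear copy of mt-Nd3, Gm28438, had 0.17 to 0.73 counts per mt-Nd3 count, that of mt-Nd4l, Gm10222, had 0.446 to 2.5 per mt-Nd4l count, and that of mt-Nd4, Gm28439, had 0.00147 to 0.00599 per mt-Nd4 count over the 12 libraries. The copy Gm28439 fell with wounding in total RNA (log2 fold change -2.39, SE 0.17, edgeR adjusted p = 2.84e-07) and in cortical RNA (-1.12, SE 0.16, adjusted p = 0.00129), and it was lower in cortical than in total RNA of unwounded cells (-0.82, SE 0.16, adjusted p = 0.00251), as mt-Nd4 was in these 3 comparisons. In wounded cells its estimate for cortical against total RNA was 0.45 (SE 0.16, adjusted p = 0.0756), higher in the cortical libraries without overlap, where mt-Nd4 was lower (-0.58). Its interaction was called (1.26, SE 0.23, adjusted p = 0.0325, and 0.0855 to 0.172 with library size alone, on FPKM values, with the block or with the length trend removed), and that of mt-Nd4 was not (0.46, adjusted p = 0.582). Gm10222 fell with wounding in total RNA (-1.97, SE 0.35, adjusted p = 0.00123), and the estimate for Gm28438 there was -1.02 (SE 0.45, adjusted p = 0.14). Which of these counts came from the nuclear and which from the mitochondrial sequence cannot be told apart.

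**Figure D4:**
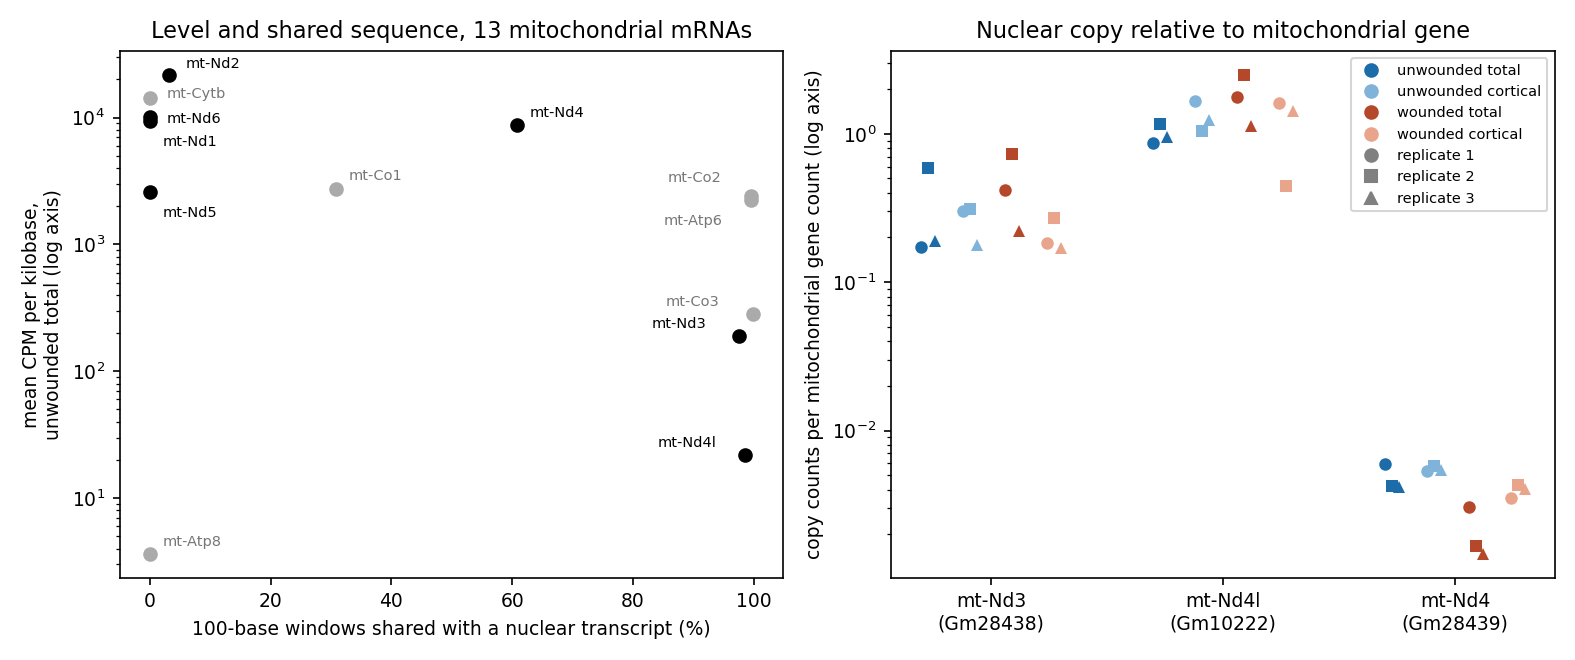
Left, mean CPM per kilobase in unwounded total RNA (log axis) against the share of 100-base windows found in an annotated nuclear transcript (%), with a point for each of the 13 mitochondrial mRNAs (complex I black, others grey); right, counts of the nuclear copy per count of the mitochondrial gene (log axis) for 3 members in each of the 12 libraries. The copy of mt-Nd4l has about as many counts as the gene (0.446 to 2.5 per count), while that of mt-Nd4 has at most 0.00599 per count.

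The other mitochondrial RNAs give the closest comparison. Of the 6 other mitochondrial mRNAs, 4 were called lower in cortical RNA of unwounded cells, 1 in wounded cells, 3 with wounding in total RNA and 2 with wounding in cortical RNA, and none was called higher. The shares of all genes called lower in these 4 comparisons were 7.59%, 8.03%, 7.2% and 0.884%. The mRNA of cytochrome b, mt-Cytb, a subunit of complex III, was called in all 4, with log2 fold changes of -1.06, -0.40, -1.34 and -0.69 in that order (edgeR adjusted p = 0.000121, 0.044, 8.35e-06 and 0.00937). Its call between fractions of wounded cells was lost in 15 of 26 alternatives (log2 fold change -0.54 to -0.17, adjusted p up to 0.253), and that for wounding in cortical RNA in 6 of 26 (adjusted p up to 0.134). The mRNA of the cytochrome c oxidase subunit mt-Co1 fell by 1.53 with wounding in total RNA (adjusted p = 2.97e-05) but was not called between cortical and total RNA of unwounded (-0.28, adjusted p = 0.325) or wounded cells (0.44, adjusted p = 0.0884). The ribosomal RNA mt-Rnr1 was lower in cortical than in total RNA of unwounded (-0.99, SE 0.28, adjusted p = 0.0245) and wounded cells (-1.02, SE 0.28, adjusted p = 0.0204), calls lost in 6 and 8 of 26 alternatives, and mt-Rnr2 was called in neither (-0.53, adjusted p = 0.278, and -0.86, adjusted p = 0.0571). With wounding in total RNA neither was called, with -0.21 for mt-Rnr1 (adjusted p = 0.676) and 0.08 for mt-Rnr2 (adjusted p = 0.903), although mt-Rnr2 was called higher when wounded total replicate 1 was left out (0.46, adjusted p = 0.00863). These libraries were selected for poly(A).

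The nuclear-encoded partners of the 7 subunits were described from lists of 7 core subunits, which carry the redox centres of the peripheral arm, 30 supernumerary subunits, 17 assembly factors and 23 factors of mitochondrial transcription and RNA processing. Of these 77 genes, 76 were tested. With wounding in total RNA, where all mitochondrial members fell, no nuclear subunit was called lower, and the lowest estimate among them was -0.21. Of the core subunits, 3 of 7 were called higher (median of the 7 genes 0.37), as were 7 of 30 supernumerary subunits (median 0.39), and the edgeR background was 8.39% of all genes higher. Core subunits that rose included Ndufv1, which binds NADH and FMN (521 ± 78.5 against 367 ± 45.0 CPM, SD, n = 3, log2 fold change 0.51, SE 0.12, adjusted p = 0.0112) and Ndufs8, which holds iron-sulfur clusters (0.45, SE 0.13, adjusted p = 0.0262). The largest supernumerary increases were in Ndufb3 (0.87, SE 0.17, adjusted p = 0.00218), Ndufb1-ps (0.85, SE 0.24, adjusted p = 0.0242), Ndufs5 (0.80, SE 0.21, adjusted p = 0.015) and Ndufa3 (0.77, SE 0.25, adjusted p = 0.0483). The call of Ndufb3 held in all 26 alternatives. Those of Ndufb1-ps, Ndufs5 and Ndufa3, whose wounded and unwounded libraries overlapped, were lost in 7, 6 and 15 of 26. The calls of Ndufv1 and Ndufs8 were lost in 4 and 6 of 26. Without wounded total replicate 1, 6 core and 23 supernumerary subunits rose, and 0 and 1 did when only the 6 total libraries entered the fit. With a gene length trend removed, 5 and 16 rose. Of all genes, 1139 were called higher with edgeR on all 12 libraries and 1887 without that replicate. The number was 663 with only the total libraries and 1909 with the length trend removed.

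Between cortical and total RNA, supernumerary subunits were lower in the cortical fraction in both treatments, as the abundant mitochondrial members were. In unwounded cells 11 of 30 supernumerary subunits were lower in cortical RNA, where 7.59% of all genes were, and 0 higher (median -0.53), led by Ndufa8 (-0.98, SE 0.11, edgeR adjusted p = 4.98e-05), Ndufb6 (-0.86, SE 0.20, adjusted p = 0.00902), Ndufb10 (-0.79, SE 0.14, adjusted p = 0.00118) and the acyl carrier protein Ndufab1 (-0.79, SE 0.13, adjusted p = 0.00077). Of the 7 core subunits, 1 was called lower, Ndufv2 (-0.60, SE 0.15, adjusted p = 0.014), and 1 was called higher (median of the 7 genes -0.29). In wounded cells 25 of 30 supernumerary subunits were lower (median -0.81), where 8.03% of all genes were, and the largest decreases among those called were in Ndufs5 (-1.13, SE 0.21), Ndufa5 (-1.11, SE 0.25), Ndufb3 (-1.07, SE 0.17) and Ndufb4 (-1.05, SE 0.21), with adjusted p-values of 0.000802 to 0.00679. The core subunits Ndufv2, Ndufs8 and Ndufs7 were also lower (-0.55, -0.52 and -0.51, adjusted p = 0.0231, 0.012 and 0.0358). Without wounded total replicate 1 the supernumerary counts were 25 in unwounded and 28 in wounded cells, and with only the groups compared in the fit they were 22 and 18. Of all genes, 1030 and 1090 were called lower with edgeR on all 12 libraries. These numbers were 1736 and 1778 without that replicate and 1622 and 559 with only the groups compared. With scaling by library size alone, 0 core subunits were lower and 2 were higher in wounded cells, where 520 of all genes were lower and 2203 higher.

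With wounding in cortical RNA, Ndufv1 was the core subunit that rose (574 ± 28.9 against 401 ± 25.6 CPM, log2 fold change 0.52, SE 0.12, edgeR adjusted p = 0.0344), and 0 of 30 supernumerary subunits were called, with 1 at an unadjusted p under 0.05 and 1 called by DESeq2. Of all genes, edgeR called 337 there and DESeq2 736. In the interaction 0 of the 37 nuclear subunits were called by edgeR, with 3 supernumerary and 0 core subunits at an unadjusted p under 0.05. DESeq2 called 0 as well, and limma's voom with library quality weights called 13 supernumerary subunits and 1 core subunit, all lower. Of all genes, edgeR called 17 in the interaction, DESeq2 72 and voom 855, the last with 502 lower and 353 higher.

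**Figure D5:**
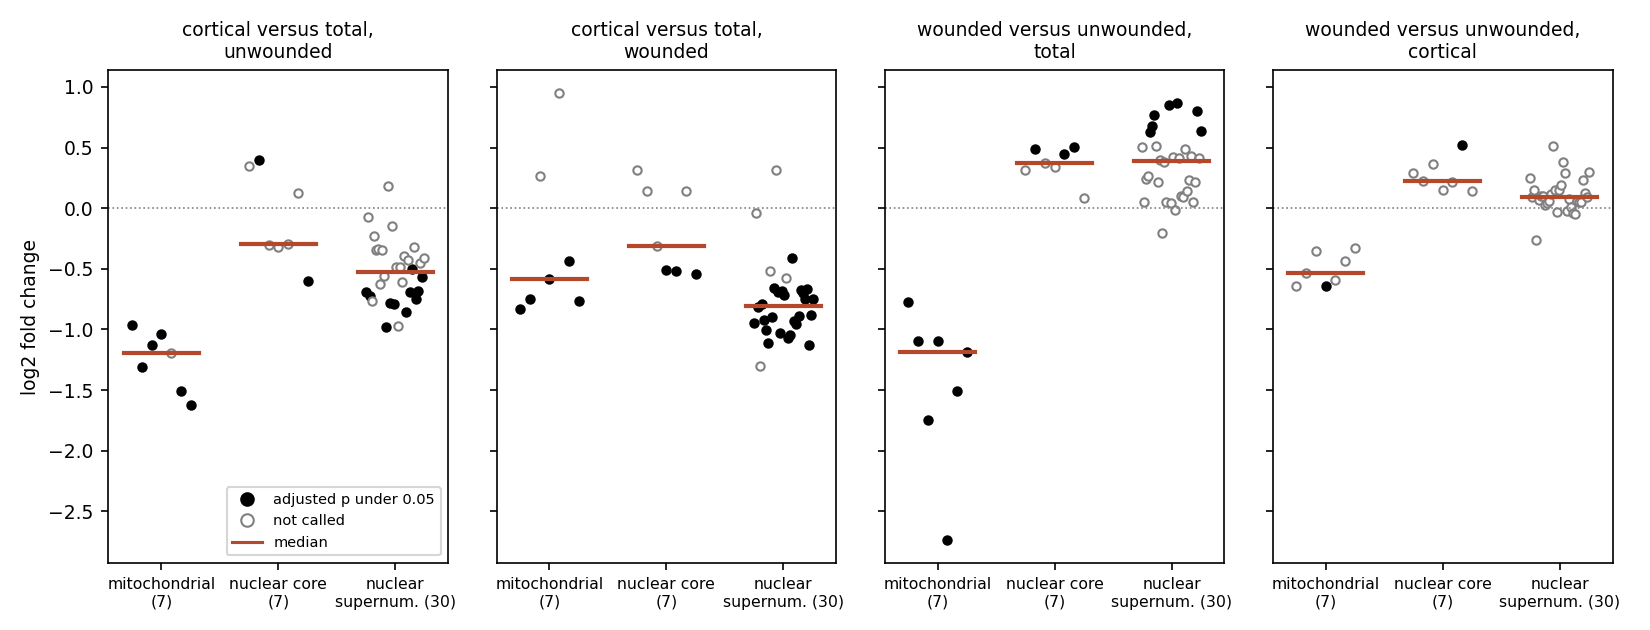
Log2 fold changes of the 7 mitochondrial, 7 nuclear core and 30 nuclear supernumerary complex I genes in the 4 comparisons between groups (black, adjusted p under 0.05 in edgeR; open grey, not called; bar, median of the genes shown). With wounding in total RNA the mitochondrial median is -1.19 and the nuclear medians are 0.37 and 0.39.

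Assembly factors put the arms together and stay out of the finished enzyme. With wounding in total RNA 3 of 16 tested were called, 1 higher and 2 lower, where 15.6% of all genes were called. There Ndufaf2 rose (48.2 ± 2.68 against 26.2 ± 2.79 CPM, log2 fold change 0.88, SE 0.15, edgeR adjusted p = 0.00104), while Ndufaf4 (-0.56, SE 0.14, adjusted p = 0.0142) and Tmem186 (-0.54, SE 0.15, adjusted p = 0.0202) fell. The call of Ndufaf2 held in all 26 alternatives, that of Ndufaf4 was lost in 2 and that of Tmem186 in 6. In wounded cells 1 of 16 was called between fractions, where 15.7% of all genes were. This was Ndufaf2, lower in cortical than in total RNA (-0.79, SE 0.15, adjusted p = 0.00269). In unwounded cells 0 of 16 tested assembly factors were called between fractions by edgeR and by DESeq2, with 2 at an unadjusted p under 0.05. Of all genes, edgeR called 14.2% there.

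Among the factors that make and process mitochondrial RNA, 3 of 23 fell with wounding in total RNA and 0 rose, where 7.2% of all genes were called lower and 8.39% higher. The number that fell was 1 with the length trend removed or with only the 6 total libraries in the fit, where 664 and 512 of all genes fell. The 3 were Ptcd3, a protein of the mitochondrial ribosome (22.5 CPM against 43.4, log2 fold change -0.95, SE 0.18, edgeR adjusted p = 0.00246), Fastkd1, an RNA-binding protein of mitochondria (-0.65, SE 0.20, adjusted p = 0.0379), and the mitochondrial poly(A) polymerase Mtpap (-0.44, SE 0.14, adjusted p = 0.0448). The call of Ptcd3 held in all 26 alternatives, that of Fastkd1 was lost in 10 (adjusted p up to 0.216) and that of Mtpap in 17 (up to 0.135). Ptcd3 also fell in cortical RNA (-0.83, SE 0.18, adjusted p = 0.0217), a call lost in 8 of 26 alternatives (adjusted p up to 0.11). In cortical against total RNA of unwounded cells, Lrpprc, which stabilizes mitochondrial mRNAs, was higher (26.8 ± 4.32 against 15.4 ± 3.65 CPM, log2 fold change 0.80, SE 0.21, adjusted p = 0.0161), as was the RNA-binding protein Fastkd2 (0.83, SE 0.22, adjusted p = 0.0168), while Hsd17b10, a subunit of mitochondrial RNase P, was lower (-0.48, SE 0.14, adjusted p = 0.0307). Lrpprc was also higher in cortical RNA of wounded cells (0.68, SE 0.21, adjusted p = 0.0364), together with the exoribonuclease Pnpt1 (0.57, SE 0.17, adjusted p = 0.0362). Between fractions 3 of 23 were called in unwounded cells, where 14.2% of all genes were, and 2 of 23 in wounded cells, where 15.7% were. In unwounded cells the calls of Lrpprc, Fastkd2 and Hsd17b10 were lost in 6, 5 and 11 of 26 alternatives. In wounded cells those of Lrpprc and Pnpt1 were lost in 10 and 11 of 26.

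Genes with the pattern most like that of the members were sought among 3136 genes with a mean of at least 50 CPM, by Pearson's correlation with the mean profile of the members over the 12 libraries. The closest were Eif4a-ps4 (r = 0.97), a processed pseudogene, Fbl (0.97), the methyltransferase fibrillarin of the nucleolus, Igfbp3 (0.96), a secreted binder of insulin-like growth factors, Ppa1 (0.95), a cytosolic pyrophosphatase, and Ruvbl2 (0.95), an ATPase of chromatin and chaperone complexes. All 5 were highest in unwounded total and lowest in wounded cortical RNA, with mean levels for Fbl of 301 CPM in unwounded total, 229 in unwounded cortical, 205 in wounded total and 196 in wounded cortical RNA. The libraries fall into 4 groups and share their scaling, and these correlations are given as a description only.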

How the data were processed

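The authors deposited raw counts per gene and FPKM values for 12 poly(A)-selected, non-directional libraries of mouse keratinocytes, per the file headers and the labels' protocols. CASAVA, HISAT2 and the build mm10 are named in the submitters' processing notes, and the counting tool and annotation are not given in the sources used here. Of the 54532 gene identifiers, 54409 were in GENCODE M21. Groups came from the sample titles, the titles call the replicates biological without saying whether cultures were separate, and 0 sample columns were left unused. The counts were tested with edgeR 4.0.16 (R 4.3.3): filterByExpr, TMM scaling, 1 quasi-likelihood model of all 12 libraries with 4 group means, 5 two-sided contrasts and Benjamini-Hochberg adjustment over 13571 genes at a threshold of 0.05. CPM use TMM-scaled library sizes. SE is that of the log2 fold change, for edgeR taken as the absolute log2 fold change divided by the square root of the F statistic. The p-values set each estimate against the modelled spread between these libraries.

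Alternatives were other scalings and filters, DESeq2 1.42.0, voom and limma-trend (limma 3.58.1) on log2 of FPKM plus 1 or 0.1, only the groups compared, the replicate block, a length trend removed (loess span 0.5), and each library left out. Adding the nuclear copies' counts was chosen after seeing the data, as was running the nuclear lists under a few of these settings. The scripts were tested on simulated data. Named genes were all members, the other mitochondrial mRNAs, and up to 4 called genes per nuclear list and comparison with the largest change and a mean of at least 100 counts. The nuclear copies and the ribosomal RNAs were named beside them, and 1 gene that this rule names is not reported here. Precision was lowest for mt-Nd4l, with as few as 13 counts. Members, lists and tests were chosen with earlier results of these data known. Figures used matplotlib 3.10.9.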

Additional observations from a re-analysis of the deposited data

Results flagged for a closer look

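The gene mt-Nd5 stood out because its cortical-to-total difference changed between treatments in a test of that change itself: the cortical-to-total log2 ratio was 1.075 higher in wounded than in unwounded cells (SE 0.16, edgeR adjusted p = 0.0117, n = 3 libraries per group). The log2 fold change of cortical over total RNA was -1.51 in unwounded and -0.43 in wounded cells, and the cortical libraries were lower without overlap in both. The estimate was 1.06 to 1.09 without the 5 cortical libraries whose removal ended the call.

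The nuclear copy of mt-Nd4, Gm28439, met the same test, with a cortical-to-total log2 ratio 1.265 higher in wounded than in unwounded cells (SE 0.23, edgeR adjusted p = 0.0325). The call was lost in 16 of 25 alternatives, with adjusted p-values up to 0.221 and estimates of 1.13 to 1.40.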

How the results depend on the processing

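The number of called complex I members was within 1.5 times the reported number in all 15 alternatives besides leaving out libraries for cortical against total RNA of unwounded cells and for wounding in total RNA. With 1 library left out it ran from 6 to 7 in both. For cortical against total RNA of wounded cells (5 called) it was 3 with library size alone, 5 with the length trend removed (4 lower and mt-Nd3 higher), 1 with limma-trend on log2(FPKM + 1), 1 on log2(FPKM + 0.1) and 1 with only the groups compared, and from 1 to 5 with 1 library left out. For wounding in cortical RNA (1 called) it was 2 with median-of-ratios, upper quartile or library size scaling, 4 without a filter, 2 with a mean of at least 50 counts, 3 with DESeq2, 5 with voom, 0 on both FPKM scales, 5 with only the groups compared, and 4 with the length trend removed, with or without the block. It was 0 to 5 with 1 library left out. For the interaction (1 called) it was 3 without a filter, 2 with DESeq2, 3 with voom, 0 on both FPKM scales, 3 with the length trend removed, with or without the block, and 0 to 3 with 1 library left out. The cause of these changes was not tested.

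Signs turned as follows. In cortical against total RNA of unwounded cells mt-Atp8 was 0.10 with the length trend removed, 0.19 with the block as well, and -0.46 to 0.32 with 1 library left out (0.32 without unwounded total replicate 1). In wounded cells mt-Nd3 was -0.033 with nuclear copies added, and mt-Atp6 was -0.94 to 0.36 with 1 library left out (0.36 without wounded total replicate 2). For wounding in total RNA mt-Co3 was 0.11 and mt-Rnr1 0.17 with voom, and with 1 library left out mt-Rnr1 was -0.48 to 0.13 (above 0 without unwounded total replicate 3 or wounded total replicate 1). There mt-Rnr2 was -0.080 with library size alone, -0.063 and -0.064 on the FPKM scales, -0.0029 with the replicate block, and -0.23 to 0.46 with 1 library left out (below 0 without unwounded total replicate 2 or wounded total replicate 2 or 3). In the interaction, voom gave -0.23 for mt-Nd1, -0.21 for mt-Co2 and -0.25 for mt-Co3. With 1 library left out the interaction was -0.16 to 0.29 for mt-Nd1 (-0.16 without wounded total replicate 1 and -0.09 without unwounded total replicate 3), -0.13 to 0.75 for mt-Co3 (lowest without wounded total replicate 1) and -1.78 to 0.066 for mt-Atp8 (highest without wounded total replicate 2). With a mean of at least 50 counts mt-Atp8 gave no value.

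With the replicate block the called members were 6, 5, 7, 1 and 1 in the order of the report, the same numbers as without it, and 1857, 1985, 2038, 276 and 10 genes were called in all, against 1928, 2124, 2116, 337 and 17. Same-numbered libraries had correlated deviations only in numbers 1 and 2 of the total groups (r = 0.15 and 0.22, each library there closest to its own number), and r was -0.031 to 0.009 elsewhere, so the numbers were not taken as a pairing.

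Over all genes, the 5 counts of calls with voom were 3708, 4441, 5206, 1316 and 855. With only the groups compared the first 4 were 3014, 970, 1175 and 1423. Wounding in cortical RNA gave 199 with library size alone, 559 without a filter and 736 with DESeq2, and the interaction gave 11, 138 and 72, 30 with the length trend removed, with or without the block, and 10 on both FPKM scales. The count for fractions in wounded cells was 1365 with the length trend removed and the block. With 1 library left out the counts ran from 949 to 3151, 1084 to 3475, 1128 to 3502, 108 to 1276 and 4 to 413, each highest without wounded total replicate 1.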
